A study of Mus musculus with 8 samples.

Results

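The genes described here are 37 macrophage, monocyte and dendritic cell genes, without integrins and MHC class II genes, found by symbol among the 54532 genes of the deposited count table. Of these, 35 had enough reads to be tested, beside 15862 genes tested in all. The exceptions were Marco, a scavenger receptor with 0 to 6 reads per library, and Xcr1, the chemokine receptor of cross-presenting dendritic cells, with 1 to 21 reads per library. Poly-adenylated RNA of the stomach corpus was sequenced from 4 control mice (Six2-Cre+/- PKAcaR wt/wt) and 4 mutant mice (Six2-Cre+/- PKAcaR fl/wt), all on a mixed C57BL/6 and CD1 background and all untreated, so both groups carried the Cre and differed in 1 copy of the PKAcaR allele. That allele is known as a Cre-dependent, constitutively active form of the protein kinase A catalytic subunit alpha. Six2-Cre restricts recombination to cells with a history of Six2 expression, and which corpus cells recombined was not measured here. The series counts each library as a biological replicate, and the labels used here give neither age nor sex.

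Tissue macrophages depend on signals through the receptor Csf1r, take up dying cells and debris, and are replenished in many mucosae by blood monocytes that enter through the chemokine receptor Ccr2. They recognise antibody-coated particles with Fc receptors, of which the activating ones signal through the adaptor Fcer1g. Microbial products are recognised with Toll-like receptors and the co-receptor Cd14. Conventional dendritic cells arise through the growth factor receptor Flt3 and carry antigen to lymph nodes, guided by Ccr7. In the stomach corpus, monocytes and macrophages are known to gather when acid-secreting parietal cells are lost and the glands turn metaplastic.

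Most of the 35 genes stood higher in the mutant libraries, by very unequal amounts, and 1 mutant library carried most of the height. Levels are given as CPM, the read count of a gene relative to the size of its library, after scaling by the trimmed mean of M-values (TMM), which sets the middle of all genes to about the same level in each library. Cd14, Tlr2, Gpnmb, Ccr2, Fcgr1, Fcgr2b and Ptprc rose, that is, 7 of 35 (20%) passed an adjusted p of 0.05 in edgeR's quasi-likelihood test, and 0 fell. Among all genes tested 9.39% were called higher and 10.8% lower. The median log2 fold change, mutant over control, was 1.46 for the 35 genes and 0.07 for all genes, with a value above 0 for 32 of the 35 and for 55% of all genes. The groups did not overlap, with every mutant above every control, for 9 of the 35 (25.7%, against 14.2% of all genes), and the reverse held for 0 (16.1% of all genes). These were the 7 called genes, Fcgr3 and Lyz2.

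Mutant 2 was the highest of all 8 libraries for 31 of the 35 genes. Its median level was 6.91 times the control mean, against 1.59 times in mutant 1, 0.991 times in mutant 3 and 1.87 times in mutant 4. Over all genes its log2 CPM correlated with the other mutants at 0.83 to 0.875, where those 3 correlated with each other at 0.972 or more. With mutant 2 left out, 14 of the 35 genes were called higher (40%, background 15.2%) and 1 lower (2.86%, background 18.3%), while the median log2 fold change was 0.55 (all genes 0.02). Without it, Fcer1g, Fcgr3, Laptm5, Lyz2, Msr1, Tlr4 and Tyrobp joined the genes called higher, and Cd163 was the gene called lower. With mutant 3 left out instead, 15 were called higher (9.56% of all genes) and 0 lower. The call of Ptprc, Ccr2, Fcgr1 and Fcgr2b ended when any 1 control library was left out, with adjusted p between 0.0814 and 0.119 over these genes and controls. Without mutant 4 it ended for Ptprc (adjusted p = 0.0628), Fcgr1 (0.0541) and Fcgr2b (0.0644). The share of all genes called higher fell as well. It went from 9.39% to between 4.08% and 5.77% with 1 control left out, and to 5.21% without mutant 4. Cd14, Tlr2 and Gpnmb were called in every one of the 21 other settings run.

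**Figure D1:**
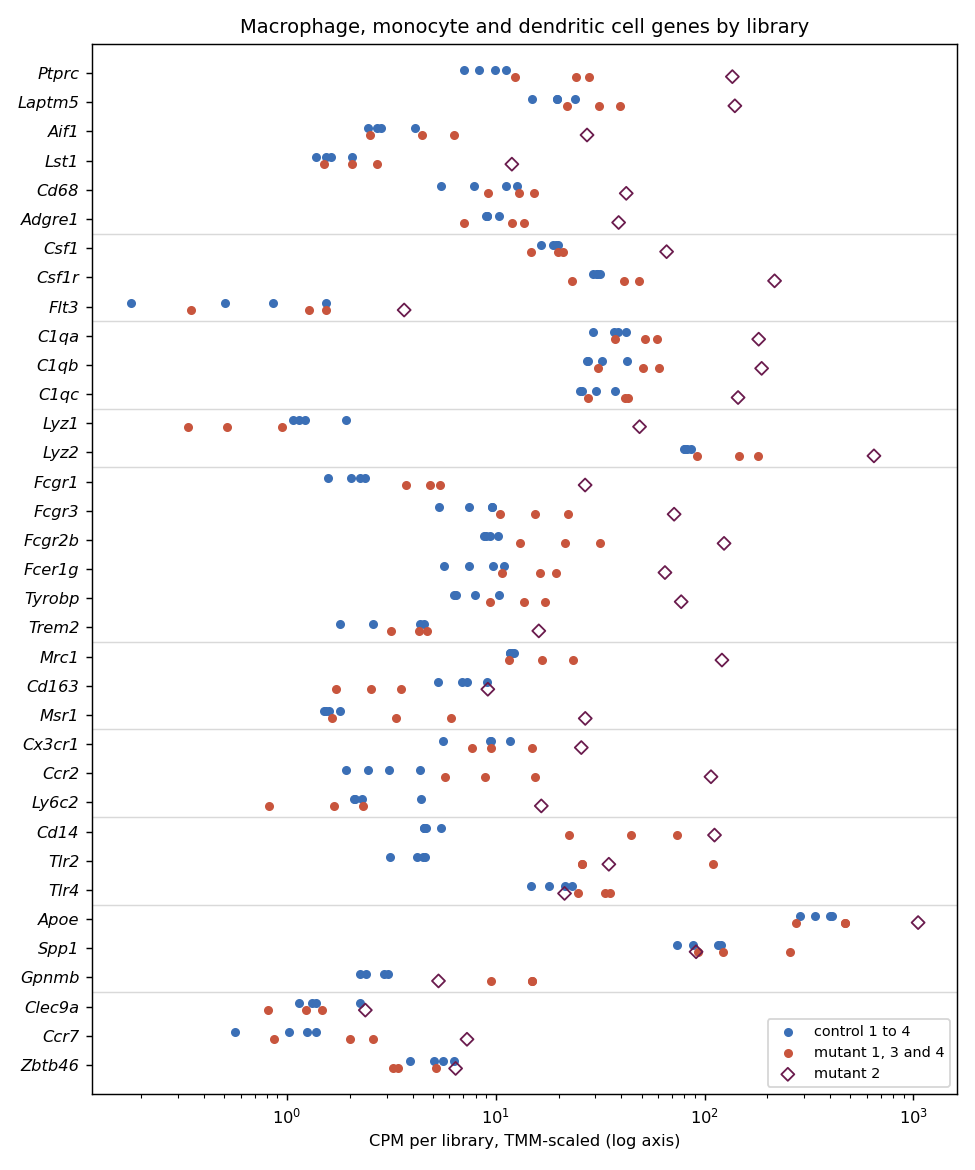
Level of each of the 35 tested genes in each library, as TMM-scaled CPM on a log axis, with genes grouped by role. Blue points are the 4 controls, red points are mutants 1, 3 and 4, and open diamonds are mutant 2, which is the rightmost point for 31 genes.

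**Figure D2:**
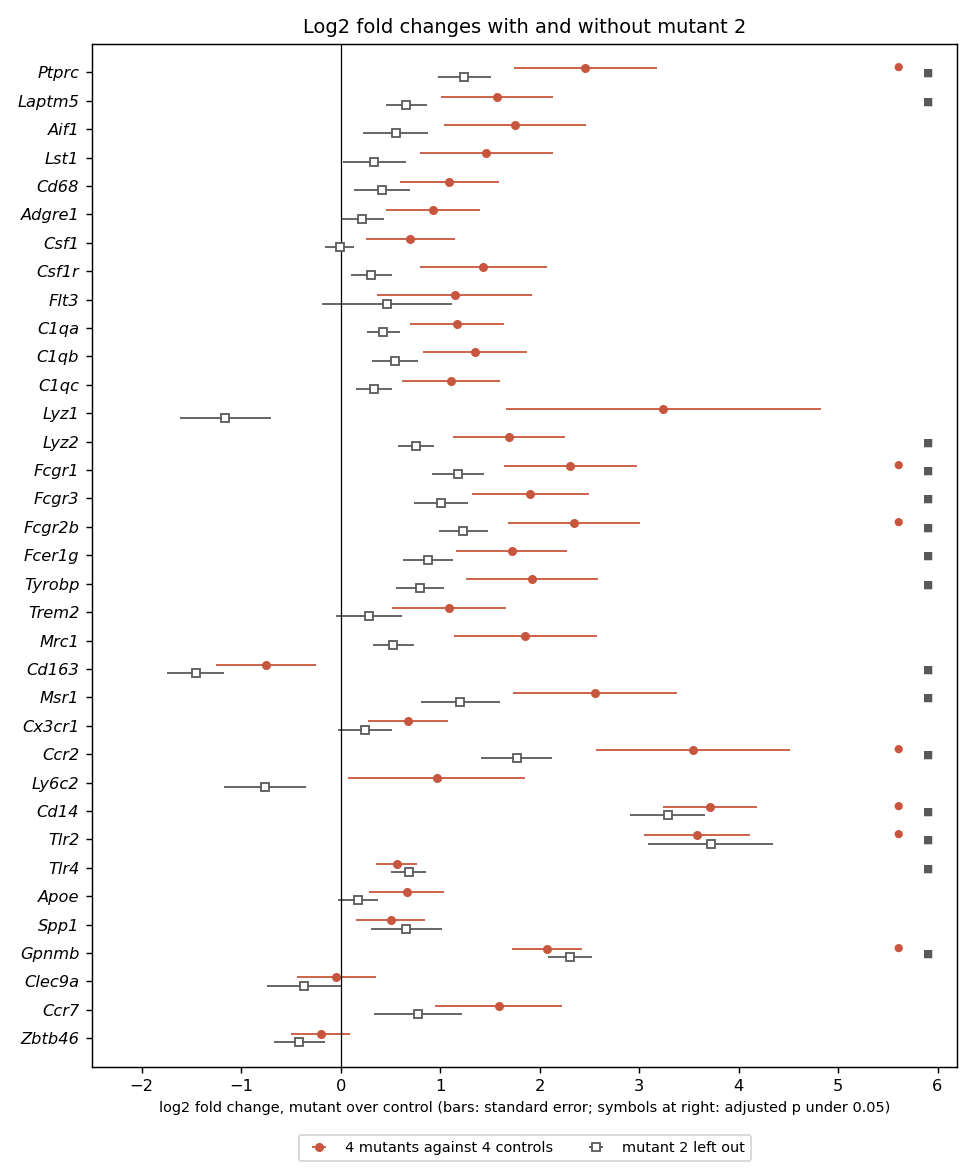
Log2 fold change of each tested gene, mutant over control, with bars of 1 standard error from edgeR. Red circles use all libraries and open squares leave out mutant 2, and symbols at the right edge mark an adjusted p under 0.05, held by 7 genes with all libraries and by 15 without mutant 2.

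The scaling bears on these counts. Library totals were alike in both groups, from 18942308 to 22814152 reads in controls and from 18184281 to 23814720 in mutants. The TMM factors ran from 0.688 to 0.839 in controls and from 1.24 to 1.32 in mutants. After this scaling, a count of 3 equals 0.179 to 0.198 CPM in controls and 0.1 to 0.129 CPM in mutants. The 6 chief cell genes summed to 298410 to 533950 CPM in controls and to 1114 to 47001 CPM in mutants. Most of this sum was the gene Pgc in every library. Of the 6, 2 were called lower, 3 were not called and 1 was called higher. The last was Cym, with a mean of 2.48 CPM in controls and 3982 CPM in mutants. With column totals in place of TMM, 29 of the 35 genes were called higher and 0 lower, but so were 59.3% of all genes (9412 higher and 724 lower, the latter 4.56%, against 1489 higher and 1719 lower with TMM), and the median over all genes moved by 0.696 on the log2 scale. Levels below are relative to the TMM scale, and ratios between genes within a library, which no scaling changes, are given where the results turn on it. In bulk tissue, fewer cells of a type and less RNA per cell cannot be told apart. Prkaca, the locus of the PKAcaR allele, stood at 80.2 ± 4.05 CPM (SD, n = 4) in controls and 37.9 ± 1.87 CPM (SD, n = 4) in mutants, with every mutant below every control. Its log2 fold change was -1.08 (SE 0.09, adjusted p = 0.000604), and -0.38 with column totals. The counts do not separate the 2 alleles, so this level does not by itself check the labels.

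Marker sums of neutrophils, T and NK cells and B cells were also highest in mutant 2. The summed level of the 11 neutrophil markers was 0.658 to 21.1 CPM in controls and 161, 196, 434 and 2878 CPM in mutants 4, 3, 1 and 2, and 4 of the 5 tested were called higher. Ly6g, Elane, Ngp and Camp had no read in any control. T and NK cell markers summed to 6.51 to 8.63 CPM in controls and 7.55 to 68.1 CPM in mutants (4 of 7 tested called higher), and B cell markers to 1.09 to 7.48 and 4.87 to 64.3 CPM (1 of 6). Mast cell markers overlapped between the groups, at 30.1 to 110.2 and 35.2 to 95.9 CPM, and 0 of 7 were called. Eosinophil markers summed to 1.60 to 4.61 CPM in controls and to 2.94, 9.12, 6.73 and 12.5 CPM in mutants 1 to 4, and 1 of 3 tested was called higher. For all counts of this paragraph, the share over all genes was 9.39% called higher and 10.8% called lower. The epithelial sum was 1719 CPM in mutant 2, below the 4022 to 6447 CPM of the other 7 libraries, although Epcam, the gene of that list that was called higher, was highest in mutant 2. Smooth muscle genes summed to 2604 to 3566 CPM in controls and 233 to 750 CPM in mutants (6 of 6 called lower), and parietal cell genes to 18073 to 24389 and 375 to 3882 CPM (5 of 7 called lower). The gene Gif was counted in both the parietal and the chief cell list. Its part was 2800 to 5168 CPM in controls and 1096, 147, 1409 and 1349 CPM in mutants 1 to 4. Of 4 tested plasma cell genes, 2 were called higher, Jchain and Mzb1, and 1 lower. Squamous genes were high in control 3 and mutant 3, at 288 and 666 CPM, against 4.42 to 54.6 CPM in the rest. Several member genes, among them Ptprc, Fcer1g, Tyrobp, Fcgr3, Cd14 and Tlr2, are also expressed by neutrophils or lymphocytes, and the part of these cells in the results was not tested.

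**Figure D3:**
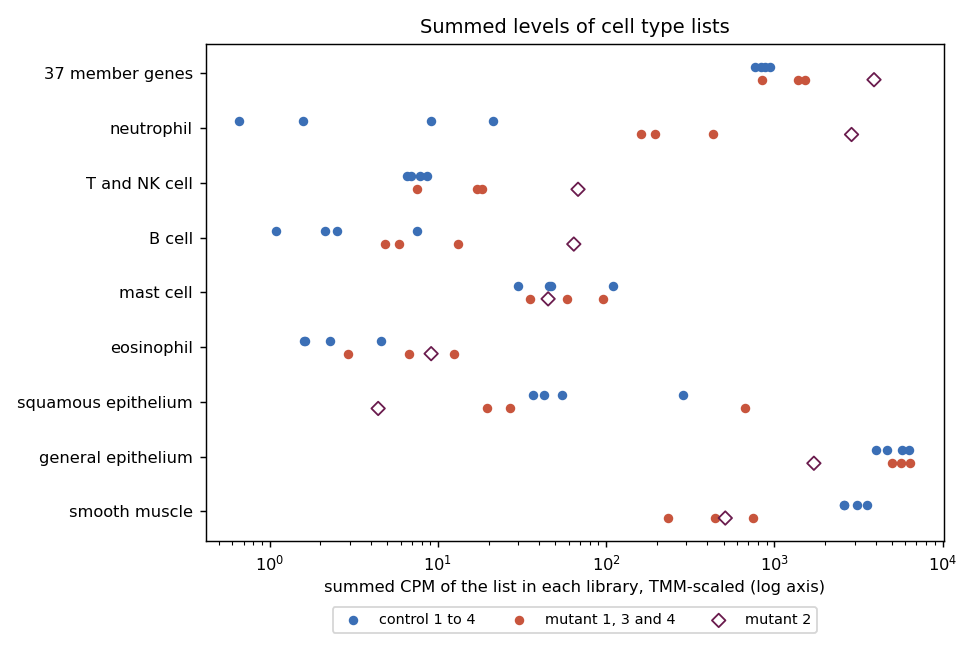
Summed TMM-scaled CPM of the 37 member genes and of marker lists of other cell types in each library, on a log axis. Controls are blue, mutants 1, 3 and 4 red and mutant 2 an open diamond. Neutrophil sums run from 161 to 2878 CPM in mutants against at most 21.1 CPM in controls, and most of each mutant sum is the gene Ltf.

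Ptprc encodes the phosphatase CD45, found on nearly all white blood cells, and lies at chr1:138062861-138175708 on the mouse build GRCm38. It stood at 7.03, 11.1, 8.30 and 9.93 CPM in controls 1 to 4 and at 24.2, 136, 12.4 and 28 CPM in mutants 1 to 4. Every mutant was above every control, with mutant 3 close to control 2. The log2 fold change was 2.46 (SE 0.71, adjusted p = 0.0443) with all libraries and 1.24 (SE 0.26, adjusted p = 0.00527) without mutant 2. Laptm5, a lysosomal membrane protein of blood cells, was not called with all libraries (adjusted p = 0.0811) and was called without mutant 2, at 0.66 (SE 0.20, adjusted p = 0.0298), with 14.96 to 23.8 CPM in controls and 31.1, 139.7, 21.9 and 39.5 CPM in mutants 1 to 4. In edgeR on the TMM scale, the more macrophage-restricted identity genes did not pass the test with either set of libraries. With column totals, Adgre1, Cd68, Aif1 and Lst1 were called higher, as were 59.3% of all genes. DESeq2 called Aif1 higher, where it called 15.1% of all genes higher. Adgre1, the F4/80 antigen, stood at 9.10, 8.96, 9.06 and 10.4 CPM in controls and 13.6, 38.8, 7.07 and 12 CPM in mutants, so mutant 3 was below all controls and the other 3 mutants above them. Cd68, a lysosomal glycoprotein of phagocytes, had a log2 fold change of 1.09 (SE 0.50, adjusted p = 0.154), and 0.42 without mutant 2. Aif1, the cytoskeletal protein also called Iba1, had 1.75 (SE 0.72, adjusted p = 0.117), and 0.55 without mutant 2. For Lst1, a small leukocyte membrane protein, the values were 1.46 (SE 0.67, adjusted p = 0.153) and 0.34.

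The promoters of 4 member genes that the comparison turned on are shown for their sequence beside their levels: Ptprc, the pan-leukocyte gene, Fcgr1 and Gpnmb, which rose, and Cd163, which was called lower without mutant 2. Fcgr2b, Ccr2 and Tlr2 also rose, but are not shown because their windows overlapped annotated exons beyond a set limit. Each sequence shown is the 250 bases before the gene's start in RefSeq's GRCm38.p6 annotation, 5′ to 3′ on the gene's strand. Capitals mark the core of the PU box, the site of the myeloid lineage factor Spi1, searched as GAGGAA on both strands (TTCCTC on the strand shown).

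Ptprc: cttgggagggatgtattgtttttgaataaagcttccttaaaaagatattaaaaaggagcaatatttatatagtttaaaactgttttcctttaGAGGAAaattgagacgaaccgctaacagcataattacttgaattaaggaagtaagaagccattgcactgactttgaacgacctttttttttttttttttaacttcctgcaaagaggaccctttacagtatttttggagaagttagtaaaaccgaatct
Fcgr1: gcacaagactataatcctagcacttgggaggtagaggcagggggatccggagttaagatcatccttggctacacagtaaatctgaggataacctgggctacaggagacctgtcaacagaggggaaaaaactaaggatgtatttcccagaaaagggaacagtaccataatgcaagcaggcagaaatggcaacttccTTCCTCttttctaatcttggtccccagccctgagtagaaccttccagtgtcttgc
Gpnmb: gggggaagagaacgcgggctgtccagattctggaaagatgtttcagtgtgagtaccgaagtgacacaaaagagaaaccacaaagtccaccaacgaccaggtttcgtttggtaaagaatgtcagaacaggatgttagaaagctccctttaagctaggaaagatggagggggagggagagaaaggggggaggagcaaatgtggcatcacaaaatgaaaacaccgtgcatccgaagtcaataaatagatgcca
Cd163: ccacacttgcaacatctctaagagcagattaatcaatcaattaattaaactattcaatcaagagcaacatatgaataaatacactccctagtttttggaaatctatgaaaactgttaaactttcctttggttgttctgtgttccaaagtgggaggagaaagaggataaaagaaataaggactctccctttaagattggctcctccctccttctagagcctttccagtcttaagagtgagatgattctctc

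These windows lie at chr1:138175306-138175555 (minus strand), chr3:96293970-96294219 (minus strand), chr6:49036268-49036517 (plus strand) and chr6:124304401-124304650 (plus strand). The Ptprc window lies inside the span that the count table gives for the gene, chr1:138062861-138175708. The other windows lie outside the spans of their genes. Ptprc and Fcgr1 each held 1 PU box core, and Gpnmb and Cd163 held 0. The windows of Fcgr2b, Ccr2 and Tlr2, which are not shown, held none. Of the 28 member genes with a RefSeq promoter, 14 (50%) had this core in their window, against 25.9% of 27025 genes. The other motifs searched on both strands were the AP-1 site TGANTCA, present in 3 of the 28 members (10.7%, against 7.82% of genes), and the full cyclic AMP response element TGACGTCA, present in 0 of 28 (1.77% of genes). The 14 genes with the PU box core included Aif1, C1qb, Fcgr3, Laptm5 and Mrc1 and also Ly6c2, Marco and Spp1. A match describes these letters only and is no measure of binding. Promoters of Adgre1, C1qa, Ccr7, Cd14, Csf1r, Lst1, Msr1, Tlr4 and Tyrobp were not analysed here.

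The growth factor axis was not called with all libraries or without mutant 2 on the TMM scale. Csf1, the cytokine that sustains macrophages, stood at 16.5 to 19.96 CPM in controls and at 19.9, 65.8, 14.7 and 21.1 CPM in mutants 1 to 4. The fitted log2 fold change was 0.70 (SE 0.45, adjusted p = 0.291) with all libraries and -0.01 (SE 0.15, adjusted p = 0.97) without mutant 2. Csf1r, its receptor, was nearly constant among controls, at 29.3, 30.5, 31.5 and 30.6 CPM, and ranged more than the controls did among the mutants, at 41.0, 216, 23.2 and 48.8 CPM. Mutant 3 was below every control and the other mutants were above them, and the log2 fold change was 1.44 (SE 0.64, adjusted p = 0.144), or 0.31 (SE 0.21, adjusted p = 0.282) without mutant 2. Flt3, the receptor of the dendritic cell growth factor, had 3 to 89 reads per library and a log2 fold change of 1.15 (SE 0.78, adjusted p = 0.319), or 0.47 without mutant 2.

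The 3 chains of complement C1q, which tissue macrophages make and which bind dying cells and immune complexes, were not called with all libraries on the TMM scale. C1qa stood at 38.7, 41.9, 36.8 and 29.3 CPM in controls and 52.0, 182, 37.2 and 58.9 CPM in mutants. The log2 fold changes of C1qa, C1qb and C1qc were 1.17, 1.35 and 1.11 (SE 0.47, 0.52 and 0.49), with adjusted p of 0.113, 0.102 and 0.142. Without mutant 2 they were 0.43, 0.55 and 0.34, and none was called. C1qb was called higher without mutant 3 and by DESeq2, where 9.56% and 15.1% of all genes were. With column totals all 3 chains were called higher, as were 59.3% of all genes. For all 3, mutants 1, 2 and 4 were above every control and mutant 3 lay within the control range. Counted within a library against Ptprc, the C1q chains together gave 14.4, 10.9, 10.9 and 8.24 reads per Ptprc read in controls and 5.95, 3.78, 7.71 and 5.80 in mutants, with every mutant below every control. Ratios of Adgre1 and Csf1r to Ptprc were ordered the same way, at 1.06 ± 0.201 and 0.461 ± 0.134 (SD, n = 4 each) for Adgre1 and 3.44 ± 0.649 and 1.73 ± 0.116 for Csf1r. Of the 34 members set against Ptprc, 11 were lower in every mutant (32.4%), where 53.8% of all genes were, so this order was more frequent over all genes.

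The lysozyme genes were both highest in mutant 2 and lay on opposite sides of the controls in mutants 1, 3 and 4. Lyz2, the lysozyme of macrophages and neutrophils, stood at 82.3, 86.5, 79.9 and 81.0 CPM in controls and 147, 648, 91.8 and 179 CPM in mutants. Every mutant was above every control, and the log2 fold change was 1.69 (SE 0.56, adjusted p = 0.0678), or 0.76 (SE 0.18, adjusted p = 0.0102) without mutant 2. Lyz1, the lysozyme of intestinal Paneth cells, stood at 1.07 to 1.91 CPM in controls, at 48.8 CPM in mutant 2 and at 0.334, 0.517 and 0.943 CPM in mutants 1, 3 and 4. Its log2 fold change was 3.24 (SE 1.58, adjusted p = 0.176) with all libraries and -1.16 (SE 0.46, adjusted p = 0.07) without mutant 2. Both genes are near-identical neighbours, and reads could have been split between them in the authors' counting. Lyz1 gave 0.0130 to 0.0221 reads per Lyz2 read in controls, 0.0754 in mutant 2, and 0.00228, 0.00564 and 0.00525 in mutants 1, 3 and 4. Of the 8 Paneth cell markers, the defensins Defa24, Defa21, Defa22 and Defa17 as well as Ang4 and Pla2g2a had no read in any library. Itln1 had 7, 85, 0 and 0 reads in controls 1 to 4 and 5, 250, 10 and 64 in mutants 1 to 4. It was not called, at 1.17 (adjusted p = 0.641), or -0.44 without mutant 2. Mmp7, the matrilysin that processes defensins in Paneth cells, had 2896 reads in mutant 2, 24 to 61 in the other mutants and 0 or 1 in controls, and its part in the Lyz1 level was not tested.

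All 6 genes of the Fc receptor group had positive log2 fold changes, and 2 were called with all libraries and 5 without mutant 2. Fcgr1, the high-affinity IgG receptor CD64 at chr3:96282909-96293969, stood at 1.57, 2.37, 2.23 and 2.03 CPM in controls and 5.41, 26.8, 3.71 and 4.84 CPM in mutants, with no overlap. The log2 fold change was 2.31 (SE 0.67, adjusted p = 0.0438), and 1.18 (SE 0.26, adjusted p = 0.00486) without mutant 2. Fcgr2b, the inhibitory IgG receptor at chr1:170958617-170976547, stood at 8.98, 10.3, 9.38 and 8.80 CPM in controls and 21.4, 124, 13.1 and 31.5 CPM in mutants, again with no overlap. The fitted log2 fold change was 2.34 (SE 0.67, adjusted p = 0.0412), and 1.23 (SE 0.24, adjusted p = 0.00335) without mutant 2. Fcgr3, an activating low-affinity IgG receptor, also had every mutant above every control, at 5.32 to 9.62 and 10.5 to 71.5 CPM. In edgeR on the TMM scale it missed the threshold with all libraries and passed without mutant 2 (1.91 and adjusted p = 0.054 against 1.01 and 0.0158). The adaptors behaved alike: Fcer1g, the common gamma chain, had 1.72 (adjusted p = 0.0626) and 0.88 (0.022), and Tyrobp, also called DAP12, had 1.92 (adjusted p = 0.0728) and 0.80 (0.0242). In mutant 3 both lay within the control range. Trem2, a lipid-sensing receptor that signals through Tyrobp, was called with neither set, at 1.09 (SE 0.58, adjusted p = 0.208) and 0.29. The ratio of the inhibitory Fcgr2b to the activating Fcgr3 overlapped between the groups, at 0.941 to 1.65 in controls and 1.25 to 1.74 in mutants.

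Among the scavenger receptors, Cd163 went against the rest. Cd163, the haemoglobin scavenger receptor of resident macrophages at chr6:124304656-124330527, stood at 5.27, 7.31, 9.06 and 6.88 CPM in controls and 2.54, 9.16, 1.72 and 3.51 CPM in mutants. Mutants 1, 3 and 4 were below every control and mutant 2 was just above them. The log2 fold change was -0.75 (SE 0.50, adjusted p = 0.31) with all libraries and -1.46 (SE 0.29, adjusted p = 0.00263) without mutant 2. With column totals it was -0.02 with all libraries and -0.76 (SE 0.29, adjusted p = 0.0277) without mutant 2. Mrc1, the mannose receptor CD206, had a log2 fold change of 1.86 (SE 0.72, adjusted p = 0.1), and 0.53 (adjusted p = 0.0684) without mutant 2. Its controls were within 11.7 to 12.3 CPM, mutants 1, 2 and 4 above them at 16.6, 121 and 23.5 CPM, and mutant 3 below at 11.5 CPM. Msr1, the scavenger receptor that takes up modified lipoproteins, was not called with all libraries (adjusted p = 0.0603) and was called without mutant 2, at 1.20 (SE 0.40, adjusted p = 0.0364), with 1.51 to 1.79 CPM in controls and 3.34, 26.8, 1.64 and 6.13 CPM in mutants. With all libraries, DESeq2 called Mrc1 and Msr1 higher, as it did 15.1% of all genes.

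Within each library, reads of Cd163 per read of Csf1r were 0.180, 0.240, 0.288 and 0.225 in controls and 0.0619, 0.0423, 0.0742 and 0.0721 in mutants 1 to 4. Mutant 2 had the lowest of these ratios, so it was not apart from the other mutants on this measure as it was in CPM. Cd163 was the single gene of 34 whose ratio to Csf1r was lower in every mutant (2.94%, against 13.2% of all genes). The ratio was higher in every mutant for 10 of the 34 (29.4%, against 2.22% of all genes), namely Ccr2, Cd14, Fcgr1, Fcgr2b, Fcgr3, Lyz2, Mrc1, Msr1, Ptprc and Tlr2. Csf1r, itself a member, stood at 7.11 times the control mean in mutant 2, so a gene not raised there falls in this ratio. Most members were high in that library, so the share over all genes is not a like measure. For Tlr2 and Fcgr3 the margin was small: mutant 2 had 851 Tlr2 and 1748 Fcgr3 reads to 5293 of Csf1r, ratios of 0.161 and 0.330, and control 1 had 0.157 and 0.326. Without mutant 2, 12 were higher (35.3%, background 6.66%) and 3 lower (8.82%, background 13.7%), with Fcer1g and Gpnmb added above and Ly6c2 and Lyz1 below. Mrc1 per Csf1r was 0.373 to 0.401 in controls and 0.406, 0.560, 0.495 and 0.482 in mutants 1 to 4, where mutant 1 was close to the controls.

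**Figure D4:**
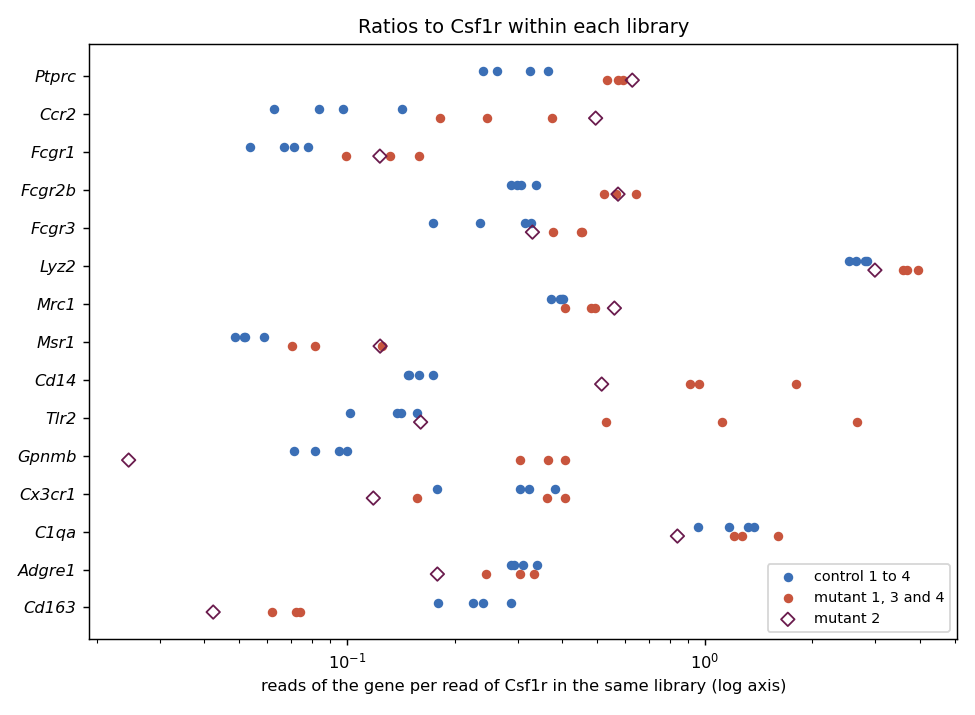
Reads of 15 member genes per read of Csf1r in the same library, on a log axis, with controls in blue, mutants 1, 3 and 4 in red and mutant 2 as an open diamond. Cd163 lies lower in all 4 mutants, from 0.0423 to 0.0742 against 0.180 to 0.288, and Ptprc, Ccr2 and Cd14 lie higher in all 4.

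The monocyte and tissue-resident chemokine receptors differed in size. Ccr2, which brings blood monocytes into tissue, at chr9:124101950-124113557, stood at 2.45, 4.35, 3.06 and 1.91 CPM in controls and 15.4, 107, 5.73 and 8.87 CPM in mutants, with no overlap. Its log2 fold change was 3.54 (SE 0.98, adjusted p = 0.0377), and 1.77 (SE 0.36, adjusted p = 0.00368) without mutant 2. Cx3cr1, the fractalkine receptor of resident gut macrophages, stood at 5.62 to 11.7 CPM in controls and 14.9, 25.7, 9.44 and 7.67 CPM in mutants, with a log2 fold change of 0.68 (SE 0.40, adjusted p = 0.257), and 0.25 without mutant 2. Reads of Ccr2 per read of Csf1r were 0.0626 to 0.142 in controls and 0.376, 0.496, 0.247 and 0.182 in mutants 1 to 4, whereas those of Cx3cr1 overlapped, at 0.178 to 0.382 and 0.119 to 0.406. Ly6c2, a surface marker of inflammatory monocytes, stood at 2.09 to 4.40 CPM in controls, 16.5 CPM in mutant 2 and 1.67, 0.819 and 2.31 CPM in mutants 1, 3 and 4. Its log2 fold change of 0.97 (SE 0.89, adjusted p = 0.464) became -0.76 (SE 0.41, adjusted p = 0.18) without mutant 2.

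The pattern recognition genes held 2 of the 3 steadiest increases. Cd14, the co-receptor for bacterial lipopolysaccharide, stood at 4.65, 4.55, 5.49 and 4.55 CPM in controls and 73.8, 112, 22.5 and 44.4 CPM in mutants 1 to 4. Even the lowest mutant was several times the highest control, and the log2 fold change was 3.71 (SE 0.47, adjusted p = 0.0023), or 3.29 (SE 0.38, adjusted p = 0.000506) without mutant 2. Tlr2, the receptor for bacterial lipoproteins at chr3:83836272-83841767, stood at 4.58, 4.22, 4.47 and 3.11 CPM in controls and 109, 34.8, 26 and 25.9 CPM in mutants. Here mutant 1 was highest and the other 3 mutants were alike. The log2 fold change was 3.58 (SE 0.53, adjusted p = 0.004), 3.72 (SE 0.62, adjusted p = 0.00545) without mutant 2 and 2.82 (SE 0.20, adjusted p = 0.0014) without mutant 1. Tlr4, the lipopolysaccharide receptor that acts with Cd14, differed less, at 14.8 to 23.3 CPM in controls and 33.2, 21.3, 24.7 and 35.2 CPM in mutants. It was not called with all libraries and was called without mutant 2 (0.56 and adjusted p = 0.086 against 0.68 and 0.0106). Cd14 was the single gene of 34 whose ratio to Ptprc was higher in every mutant (2.94%, against 0.744% of all genes). Ptprc was itself above every control in each mutant, which lowers this ratio for genes that did not rise with it. Epithelial cells are known to express Cd14, Tlr2 and Tlr4 as well, and their part in these levels was not tested.

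**Figure D5:**
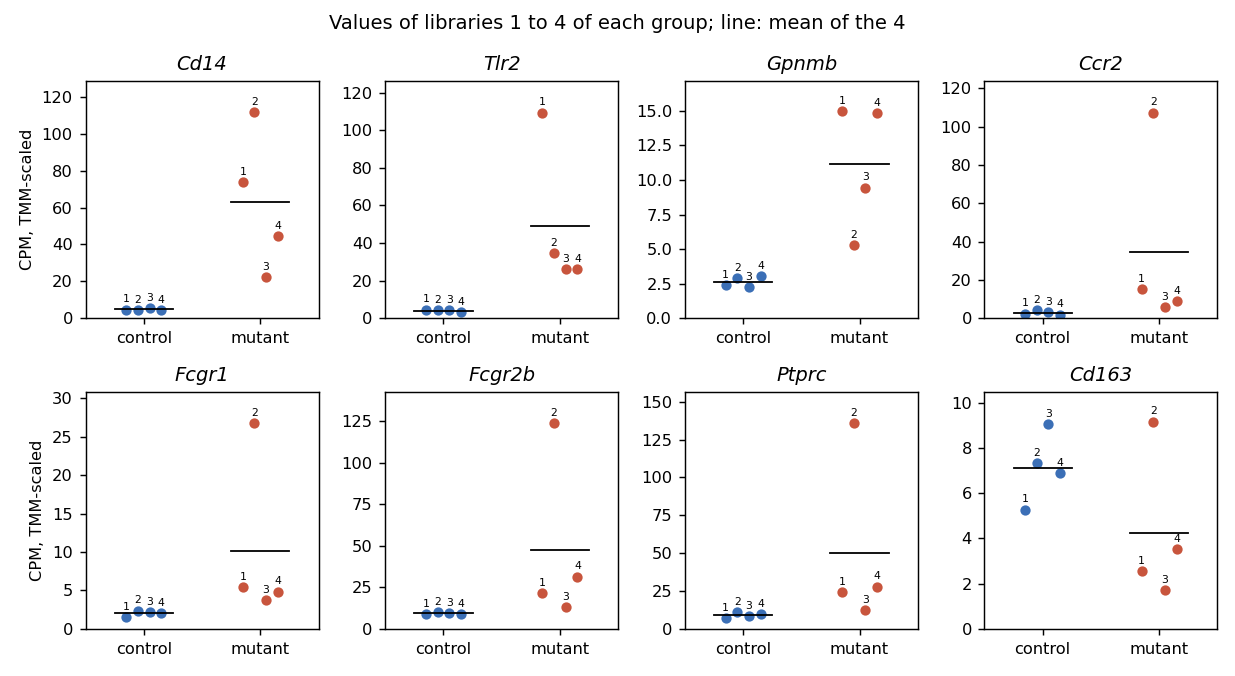
TMM-scaled CPM of 8 genes in each library, with the library number over its point and a line at the mean of the 4. The mutants lie above all controls in 7 panels, with mutant 2 highest in 5 of them, and in the Cd163 panel mutants 1, 3 and 4 lie below all controls.

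Of the lipid-associated and secreted genes, Gpnmb rose. Gpnmb, a glycoprotein of lipid-laden macrophages and of pigment cells at chr6:49036546-49070929, stood at 2.39, 2.90, 2.23 and 3.05 CPM in controls and 14.97, 5.32, 9.44 and 14.8 CPM in mutants 1 to 4. Mutant 2 was the lowest mutant here, yet above every control. The log2 fold change was 2.07 (SE 0.35, adjusted p = 0.00616), and 2.31 (SE 0.22, adjusted p = 4.08e-05) without mutant 2. Per read of Csf1r, Gpnmb was 0.0710 to 0.0998 in controls, 0.365, 0.406 and 0.304 in mutants 1, 3 and 4 and 0.0246 in mutant 2. Apoe, the lipid carrier, had the highest level per length of the 37 genes, with 166 ± 26.1 FPKM (fragments scaled by gene length and library size; SD, n = 4) in controls and 264 ± 157 FPKM in mutants. Its log2 fold change in counts was 0.66 (SE 0.38, adjusted p = 0.243), and 0.18 without mutant 2. Spp1, the secreted phosphoprotein osteopontin, stood at 73.8 to 119 CPM in controls and 93.2, 91.1, 122 and 255 CPM in mutants, with 0.50 (SE 0.35, adjusted p = 0.334). In controls Lyz2 came next after Apoe on the per-length scale, at 62.1 ± 1.98 FPKM, and overlapped Spp1 at 59.7 ± 13.4 FPKM. C1qa followed at 35.0 ± 5.07 FPKM (SD, n = 4), and the dendritic cell genes Xcr1, Flt3 and Clec9a were all below 1 FPKM. Control means below 1 FPKM were also found for genes called higher, namely Ptprc (0.492), Fcgr1 (0.786), Ccr2 (0.432) and Gpnmb (0.402).

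No dendritic cell gene among the members was called with all libraries or without mutant 2 on the TMM scale. Clec9a, a receptor for dead cells on cross-presenting dendritic cells, stood at 1.14 to 2.23 CPM in controls and 1.24, 2.37, 1.47 and 0.814 CPM in mutants, with a log2 fold change of -0.04 (SE 0.39, adjusted p = 0.945). Zbtb46, a transcription factor of conventional dendritic cells and of endothelium, stood at 3.89 to 6.32 CPM in controls and 3.21, 6.42, 5.17 and 3.39 CPM in mutants, with -0.20 (SE 0.29, adjusted p = 0.656). The signs of these 2 depend on the scaling: with column totals the values were 0.68 for Clec9a and 0.51 for Zbtb46, and neither was called. Ccr7, the receptor that guides mature dendritic cells and T cells to lymph nodes, had 1.59 (SE 0.64, adjusted p = 0.113), and 0.78 without mutant 2, with mutants 1, 2 and 4 above every control and mutant 3 within them. It was called without mutant 3 and with column totals (2.30, adjusted p = 0.0161). There were 19 to 58 reads of Clec9a and 9 to 178 of Ccr7 per library, and whether small differences could be detected at this depth was not tested. Of a further list of dendritic cell genes, 14 of 17 were tested and 1 was called higher, the co-stimulatory ligand Cd80 at 3.37 (SE 0.74, adjusted p = 0.0167). That call ended without control 2, control 3 or control 4, where 0 genes of the list were called. The list's median was 0.97, or 0.32 without mutant 2, and Cd207, the Langerhans cell lectin, had at most 2 reads in a library.

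Genes upstream and downstream of the members were read from lists drawn up with earlier results of these data known. Of 21 tested genes of receptors and kinases that signal through ITAM or ITIM motifs, the pathway of the Fc receptors, 13 were called higher and 0 lower (18 and 0 without mutant 2), with a median of 2.52, or 1.48 without mutant 2. Leaving out 1 control brought this to between 3 and 6, and leaving out mutant 4 to 7. Lyn, a Src family kinase, was at 1.05 (SE 0.18, adjusted p = 0.00666), and Vav1, a guanine nucleotide exchange factor of blood cells, at 2.54 (SE 0.43, adjusted p = 0.00664). Clec4e, the lectin Mincle that couples to Fcer1g and is also a neutrophil gene, had 1 read in the 4 controls together and 1769 in the 4 mutants together, most of them in mutant 2 (62.3 CPM, against 1.40 to 6.17 CPM in the other mutants). Scaled by library size this is a ratio of 1110, with an exact 95% counting interval of 199 to 44000 that covers counting error only. Of 23 tested Toll-like receptor and pattern recognition genes, 9 were called higher and 0 lower (10 and 0 without mutant 2), with a median of 1.54, or 0.94 without mutant 2. Leaving out 1 control brought this to 4 or 5 and leaving out mutant 3 to 14. The signalling kinases Irak4 and Irak2 were at 1.08 (SE 0.15, adjusted p = 0.00281) and 1.09 (SE 0.21, adjusted p = 0.0103), and the peptidoglycan sensor Nod2 at 2.81 (SE 0.57, adjusted p = 0.0131).

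Of 21 tested lineage factors and growth factor genes, 7 were called higher and 2 lower, with a median of 1.01, or 0.52 without mutant 2. Leaving out any 1 control brought the higher count to 2, and leaving out mutant 4 to 3. The 2 that fell were Id2, a factor needed for several dendritic and lymphoid lineages and widely expressed elsewhere, at -1.27 (SE 0.11, adjusted p = 0.000785), and Mitf, a factor of lysosomal genes in pigment cells and osteoclasts, at -1.46 (SE 0.18, adjusted p = 0.00207). Cebpa, a factor of myeloid and of epithelial cells, rose by 0.89 (SE 0.16, adjusted p = 0.00856). Of 26 tested further tissue macrophage genes, 2 rose and 3 fell, with a median of 0.79 (5 and 5 with a median of 0.18 without mutant 2, and 5 and 2 without mutant 3). Cd36, a fatty acid transporter of macrophages, capillaries and fat, fell from 168 ± 44.6 to 21.3 ± 10.8 CPM (SD, n = 4 each), a log2 fold change of -2.98 (SE 0.41, adjusted p = 0.00294). Cd9, a tetraspanin of many cell types, rose by 0.73 (SE 0.09, adjusted p = 0.0023), and Chil3, a chitinase-like protein of macrophages and neutrophils, by 6.93 (SE 1.14, adjusted p = 0.00547) from 0 to 0.329 CPM in controls to 3.88 to 26.8 CPM in mutants. Of all genes, 9.39% were called higher and 10.8% lower with all libraries, and 15.2% and 18.3% without mutant 2. The share called higher was 4.08% to 5.77% with 1 control left out, 9.56% without mutant 3 and 5.21% without mutant 4.

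Ligands of the member receptors were called higher in 4 of 9 tested genes and lower in 0, with a median of 2.52 (1.45 without mutant 2), and in 2 of them when any 1 control was left out. Without mutant 2, 5 were called higher and 1 lower, Gas6, whose receptors Axl and Mertk are not among the 37 members. Lbp was 1 of the 4 called with all libraries (adjusted p = 0.0383) and is also counted in the Toll-like receptor list. Il34 and Flt3l are also in the lineage factor list and Gas6 in the tissue macrophage list, so the counts of these lists are not independent. The Ccr2 ligand Ccl2 stood at 0.319 to 0.598 CPM in controls and 2.67, 20.3, 2.11 and 7.20 CPM in mutants, with a log2 fold change of 3.99 (SE 0.80, adjusted p = 0.0123). Ccl12, a further Ccr2 ligand of the mouse, was at 2.52 (SE 0.70, adjusted p = 0.0371). Cx3cl1, the ligand of Cx3cr1, stood at 30.6, 35.8, 26 and 29 CPM in controls and 67.0, 47.3, 60.6 and 67.8 CPM in mutants, an increase of 1.00 (SE 0.15, adjusted p = 0.00402) with no overlap and with mutant 2 the lowest mutant. The Ccr7 ligands Ccl19 and Ccl21a had no read in any library. Il34, the other ligand of Csf1r, was not called, at 6.24 ± 1.59 CPM in controls and 4.27 ± 0.969 CPM in mutants (SD, n = 4 each), with a log2 fold change of -0.55 (SE 0.27, adjusted p = 0.179).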

How the data were processed

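RNA of the stomach corpus was measured in 8 libraries, 4 per group. The authors deposited whole-number read counts per gene and FPKM values. Per the submitters' processing notes, the tools were featureCounts, STAR 2.5, fastp and CASAVA; the build and strand setting were not given in the sources used here. Of the 37 member genes, 35 had the same start and end in the table as in GENCODE M21 (GRCm38). One count column spelled SCI was read as control 1. Members and lists were chosen with earlier results of these data known.

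Counts were filtered with filterByExpr, scaled with TMM and tested with edgeR 4.0.16 (R 4.3.3; quasi-likelihood, Benjamini-Hochberg over 15862 genes, threshold 0.05). Alternatives used DESeq2 1.42.0, limma 3.58.1 (voom, or log2 of FPKM with a pseudocount of 1 or 0.1), other scalings and filters, and left-out libraries. On simulated data for this comparison (15862 genes, 200 changed), edgeR recovered 18% of 2-fold and 67% of 4-fold changes, with 2.3% false among 87 calls. DESeq2 recovered 40% and 89%, with 27.5% false among 178 calls, and voom 20% and 65%, with 0% false among 85 calls. The simulation drew each gene independently, with no library standing apart as mutant 2 did. It changed 200 genes, where 3208 were called in the data, so these rates need not hold for the data. Within groups, any pair of libraries differed by more than sampling noise (chi-square per degree of freedom at least 15.5).

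All 37 members are named. From each list, the called genes with the 3 smallest p are named. Others (Il34, Flt3l, Lbp, Cd207, Ccl19, Ccl21a, Gas6, Epcam, Jchain, Mzb1, Mmp7, Itln1, Ltf, Pgc, Cym, Gif and Prkaca) were chosen after their values were seen. Same-numbered libraries deviated together no more than by 0.0688 (correlation), so no pairing was used.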

Additional observations from a re-analysis of the deposited data

Results flagged for a closer look

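In 22 of the 74 groups of 4 libraries examined, 1 library stood apart from the other 3 by more than Dixon's 95% critical share of the group's range, which chance alone gives in about 1 in 20 groups. Genes are not independent here, since 18 of the 22 were the same library, mutant 2.

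Mutant 2 stood above the other mutants for the identity genes Ptprc (136 CPM), Laptm5 (139.7 CPM), Aif1 (27.4 CPM) and Lst1 (11.9 CPM). The same held for Csf1 (65.8 CPM), Csf1r (216 CPM), C1qa (182 CPM) and C1qc (145 CPM). Its lysozyme levels were apart at 48.8 CPM for Lyz1 and 648 CPM for Lyz2. Among Fc receptors, adaptors and related receptors it was apart for Fcgr1 (26.8 CPM), Fcgr2b (124 CPM), Fcer1g (64.6 CPM), Tyrobp (77.3 CPM), Trem2 (16.1 CPM) and Mrc1 (121 CPM). Its chemokine receptor and monocyte genes Ccr2 (107 CPM) and Ly6c2 (16.5 CPM) completed the set.

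The other 4 were scattered over libraries. Mutant 1 had 109 CPM of Tlr2, with 34.8 CPM in the next mutant. Control 4 had 10.4 CPM of Adgre1, with 9.10 CPM in the next control, and control 3 had 5.49 CPM of Cd14, with 4.65 CPM in the next. Control 1 had 4.40 CPM of Ly6c2, against 2.30 CPM in the next control.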

How the results depend on the processing

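Cd14, Tlr2 and Gpnmb were called higher in each of the 21 alternatives to the reported fit. The count of members called higher, 7, became 15 with DESeq2 (where Fcgr1 had no adjusted p), 11 with limma-voom, 29 with column totals, and 3 with no low-count filter, with both libraries numbered 3 left out and in the 3 fits of log2 FPKM. It ranged from 3 to 15 when 1 library was left out. With mutant 2 left out, a pair of combined settings chosen after seeing the data gave 29 (column totals) and 14 (RLE size factors). The count called lower, 0, was 1 with limma-voom, 1 in both combined settings, and 0 to 1 when 1 library was left out, and the gene was Cd163 each time.

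Over all genes, 1489 higher and 1719 lower became 2309 and 2385 with DESeq2, 2624 and 3067 with limma-voom, 9412 and 724 with column totals, 587 and 823 with both libraries numbered 3 left out, and 827 higher with unfiltered log2 FPKM. Leaving out 1 library gave 665 to 2447 higher and 1018 to 2953 lower. The combined settings gave 10335 and 1136 with column totals, and 2476 and 2944 with RLE size factors. No called member changed sign. Csf1, Lyz1 and Ly6c2, called in neither fit, went from 0.70, 3.24 and 0.97 to -0.01, -1.16 and -0.76 without mutant 2.

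With the replicate number as a block, 3 members were called higher, and over all genes 747 higher and 1077 lower. Same-numbered libraries correlated in their deviations at 0.0457, -0.0618, 0.0688 and 0.000648, and the best match of controls 1 to 4 was mutant 1, 1, 2 and 1, so the block rests on a shared number only.

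Clec9a, Flt3, Marco and Xcr1 had few reads, and a count of 3 equals 0.1 to 0.198 CPM. The cause of these dependences was not tested.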
